A study of Ambystoma mexicanum with 12 samples.

Results

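NPY, which codes for neuropeptide Y, and SCG2, which codes for the granule protein secretogranin II, were followed in healing axolotl skin. The members were every probe whose symbol in the array's annotation is NPY or SCG2. They were 3 probes for 2 genes, out of 20035 probes and 8639 named genes: axo09654-f_at and axo09653-f_at for NPY, and axo09178-f_at for SCG2. Both genes were selected on their rise from uninjured skin to 2 days post injury (dpi), so the values at 2 dpi are a description and carry no test.

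RNA from full-thickness punch biopsies of skin was hybridised to 12 Affymetrix arrays designed for axolotl transcripts. There were 4 groups with n = 3 arrays each: uninjured skin, and wounds at 2, 14 and 21 dpi. All groups came from adult white axolotls, and the methods name no transgene or drug for the skin arrays. Values were log2 signals after robust multi-array average (RMA), as deposited by the authors. An array signal gives the brightness of its own probe, so the levels of NPY and SCG2 were not set against each other. Levels were set against the quartiles of all probes only to mark dim signals, and the brightest probe stood for a gene. The methods name 3 separate adult male animals but leave unsaid if these were sampled at all times. A protocol text attached to the arrays instead describes pools of small animals in a spinal cord injury experiment with the drug ivermectin. Pooling, and whether any of that protocol text applies, were therefore not settled for these arrays. The p-values measure the spread between these arrays. The description line of the 14 dpi arrays names another day, and the day in their titles was used.

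Neuropeptide Y is a signalling peptide best known from sympathetic nerve fibres, which release it together with noradrenaline onto blood vessels, and in mammals it acts through a family of G protein-coupled receptors. Secretogranin II is a granin, an acidic protein packed into the dense-core granules of neurons and endocrine cells, and in mammals its fragment secretoneurin acts on endothelial cells and monocytes. Both start as precursors that prohormone convertases cut and carboxypeptidases trim on the way to release, and neuropeptide Y is then amidated at its end.

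The 12 arrays had median signals between 5.52 and 5.61 and lower quartiles between 4.04 and 4.11, and each correlated with the others of its group at a mean r of 0.975 to 0.993. Of the defining markers of skin, 5 of 7 for epidermis and 4 of 4 for dermis had a probe, and none of them had a mean below the 25th percentile of all probes (4.10). The signals of muscle genes were unequal between arrays. The mean of 51 muscle genes, with each gene centred over the 12 arrays, was -0.57 in uninjured replicate 3 and 1.49 and 1.55 in the others, and -0.31 in 2 dpi replicate 1 against -1.85 and -2.15 in the others. In whole tissue, fewer cells of a type and less RNA per cell cannot be told apart.

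NPY probe axo09654-f_at read 3.90, 3.97 and 3.97 in uninjured replicates 1, 2 and 3, 7.90, 7.46 and 7.30 at 2 dpi, 7.34, 6.24 and 5.81 at 14 dpi, and 5.79, 5.05 and 5.35 at 21 dpi. Every uninjured array lay below the lower quartile of all probes on the arrays, so how large a fold comes out depends on where background lies. Every wound array lay above every uninjured array. The levels were 3.95 ± 0.04 (SD, n = 3) in uninjured skin, 7.55 ± 0.31 at 2 dpi, 6.46 ± 0.79 at 14 dpi and 5.39 ± 0.37 at 21 dpi. At 2 dpi the mean was higher than in uninjured skin by 3.61 on the log2 scale (SE 0.34), or 12.2-fold, and it was the value with rank 8 among the 20035 probes.

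**Figure D1:**
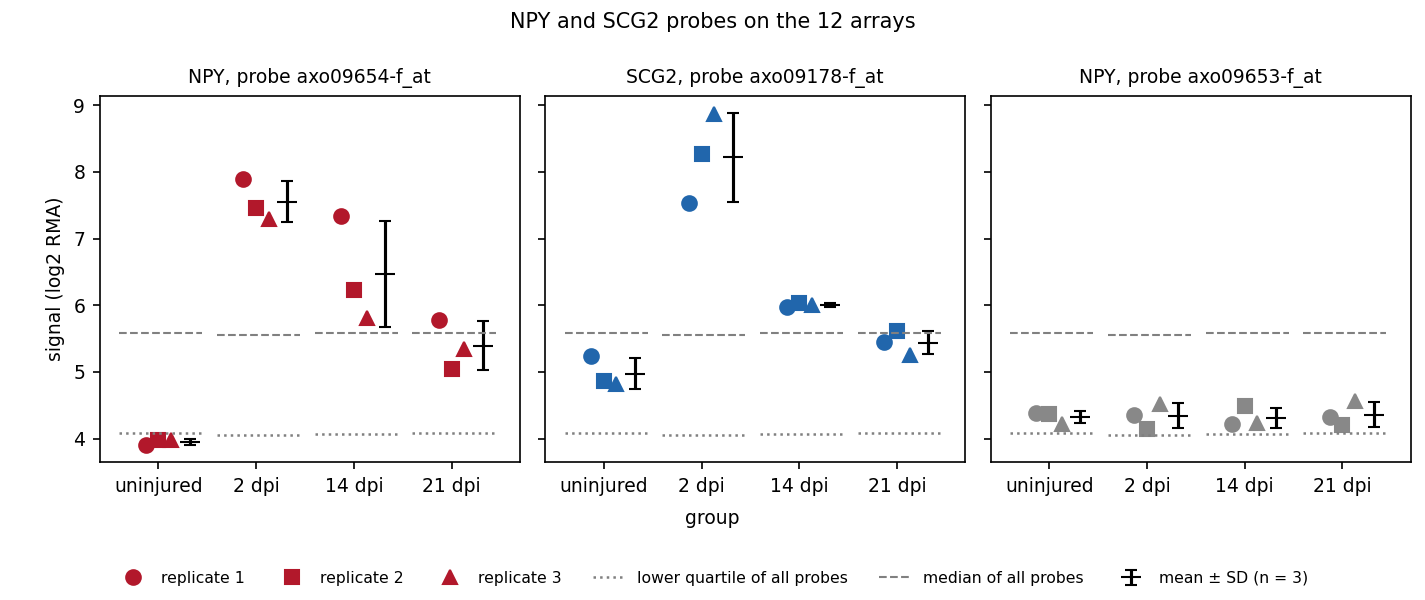
Log2 RMA signal (y axis) of the 3 probes in the 4 groups (x axis), with symbols for replicates, bars for the mean ± SD (n = 3), and grey lines for the lower quartile and median of all probes, averaged over the arrays of a group. NPY axo09654-f_at and SCG2 peaked at 2 dpi, while NPY axo09653-f_at stayed between 4.15 and 4.56.

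The same NPY probe remained above uninjured skin at both later times, which were tested. These tests share the uninjured arrays with the contrast that picked the genes, so the choice may have raised these differences and lowered their p-values. At 14 dpi NPY was higher by 2.52 on the log2 scale (95% interval 1.77 to 3.26, 5.72-fold, limma adjusted p = 0.00244), where 4.56% of all probes were called higher. At 21 dpi it was higher by 1.45 (0.70 to 2.20, 2.72-fold, limma adjusted p = 0.0199), where 6.62% of all probes were called higher. From 14 to 21 dpi NPY did not pass the test, with a difference of -1.07 (-1.82 to -0.32, limma adjusted p = 0.287), where 0.0699% of all probes were called lower. The nearest arrays of 14 and 21 dpi read 5.81 and 5.79, and the arrays of 2 and 14 dpi overlapped.

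The call at 14 dpi held with each of the 12 arrays left out in turn, with changes of 2.07 to 2.84 and limma adjusted p from 0.00195 to 0.0119. The call at 21 dpi was lost without uninjured replicate 1 (limma adjusted p = 0.0579), uninjured replicate 2 (0.0598), 21 dpi replicate 1 (0.0774) or 21 dpi replicate 3 (0.0638), and with the epidermal marker mean as a covariate (0.0785), with changes of 1.25 to 1.47.

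The second NPY probe, axo09653-f_at, gave 4.39, 4.37 and 4.23 in uninjured skin, 4.35, 4.15 and 4.52 at 2 dpi, 4.21, 4.48 and 4.24 at 14 dpi, and 4.32, 4.20 and 4.56 at 21 dpi. The groups overlapped throughout, and the values sat just above the lower quartile of all probes. Its differences from uninjured skin were 0.01 at 2 dpi, -0.02 at 14 dpi (-0.31 to 0.26, limma adjusted p = 0.964) and 0.03 at 21 dpi (-0.25 to 0.32, limma adjusted p = 0.913), and from 14 to 21 dpi 0.05 (-0.24 to 0.34, limma adjusted p = 0.945). The intervals leave no room for a change of the size that the other probe showed. No probe sequence was used here, so whether both probes match the same NPY transcript was not tested. The mean of both probes differed from uninjured skin by 1.81, 1.25 and 0.74 at 2, 14 and 21 dpi.

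Other genes on this array also had probes that disagreed. Of 1740 genes with 2 or more probes, 36 had a highest-mean probe called at least 2-fold higher at 2 dpi. In 14 of the 36 another probe was also called higher and in 22 none was. In 7 of the 36 every other probe lay within 0.1 of no change on the log2 scale. NPY is counted in the 36 and in the 7 as a description, since it was selected on this contrast. The highest mean takes in the 2 dpi arrays, so a probe that rises at 2 dpi is more readily the one that stands for its gene.

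SCG2 probe axo09178-f_at read 5.24, 4.87 and 4.81 in uninjured replicates 1, 2 and 3, 7.53, 8.26 and 8.86 at 2 dpi, 5.97, 6.03 and 6.00 at 14 dpi, and 5.45, 5.61 and 5.26 at 21 dpi. The 2 dpi arrays stood well apart from all others, and the 14 dpi arrays were close to each other. The levels were 4.97 ± 0.23 (SD, n = 3) in uninjured skin, 8.22 ± 0.67 at 2 dpi, 6.00 ± 0.03 at 14 dpi and 5.44 ± 0.18 at 21 dpi. At 2 dpi the mean was higher than in uninjured skin by 3.25 (SE 0.27), or 9.48-fold, with rank 17 among the 20035 probes.

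By 14 dpi SCG2 was still higher than in uninjured skin, by 1.03 on the log2 scale (95% interval 0.43 to 1.62, 2.04-fold, limma adjusted p = 0.0461). This test too shares the uninjured arrays with the contrast that picked SCG2, so its p may be too low. The call was near the threshold. It was lost without any one of the 3 uninjured arrays, the 3 arrays of 14 dpi, the 3 arrays of 21 dpi or 2 dpi replicate 2 (changes of 0.95 to 1.16, limma adjusted p from 0.0638 to 0.137). It held without 2 dpi replicate 1 (limma adjusted p = 0.00927) or 2 dpi replicate 3 (0.0136). Arrays of 2 and 21 dpi do not enter this difference, which stayed at 1.03 without any of them, and only its estimated spread and p moved. The SE was 0.17 and 0.19 without 2 dpi replicates 1 and 3, against 0.27 with all arrays. The call was also lost when the mean of the muscle markers (0.88, limma adjusted p = 0.115) or of the epidermal markers (1.02, limma adjusted p = 0.0562) was a covariate. At 21 dpi SCG2 did not pass the test (0.46, -0.13 to 1.06, limma adjusted p = 0.316), although each array lay above each uninjured array, the nearest being 5.26 against 5.24. From 14 to 21 dpi the difference was -0.56 (-1.16 to 0.03, limma adjusted p = 0.518).

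Arrays of a wound group that all lie above the uninjured arrays are frequent in this series. At 2, 14 and 21 dpi this held for 14.9%, 13% and 16.1% of all probes, and for NPY axo09654-f_at and SCG2 at each time. Thus the order of levels for both genes was 2 dpi, 14 dpi, 21 dpi and uninjured skin. The step from 2 to 14 dpi carried no test for either gene, and the NPY arrays of these times overlapped. Of the tested neighbours, 14 and 21 dpi did not pass the test for NPY, and neither 14 and 21 dpi nor 21 dpi and uninjured skin passed it for SCG2.

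**Figure D2:**
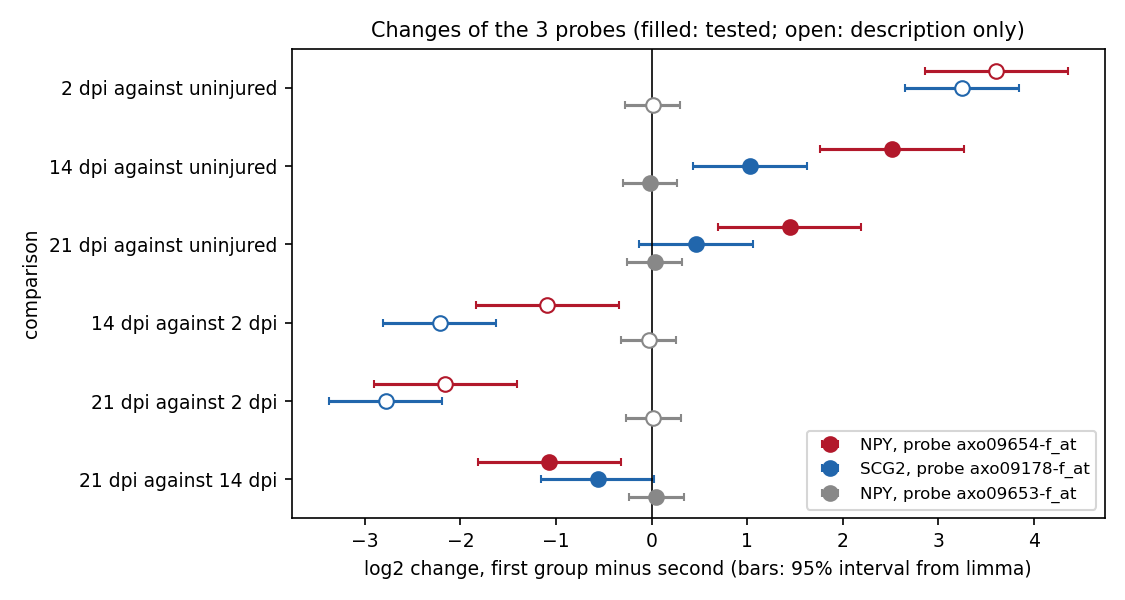
Log2 change (x axis) of the 3 probes in the 6 comparisons between groups (y axis), with 95% intervals from limma. Filled points were tested and open points are a description, and the intervals of NPY axo09653-f_at include no change in all 6 comparisons.

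The steps down from 2 dpi are a description, since they rest on the values that picked the genes. NPY at 14 dpi differed from 2 dpi by -1.09 and SCG2 by -2.22 on the log2 scale, and at 21 dpi they differed from 2 dpi by -2.16 and -2.78. Without 14 dpi replicate 1, the highest of its group for NPY (7.34), NPY at 14 dpi differed from 2 dpi by -1.53. Whether the genes differed from each other in these steps was not tested. At 2 dpi the replicates ran in opposite order, with replicate 1 highest for NPY (7.90) and lowest for SCG2 (7.53), and replicate 3 lowest for NPY (7.30) and highest for SCG2 (8.86).

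The measured receptors of neuropeptide Y showed no call, and most of the listed family had no probe. Of 11 listed NPY family peptides and receptors other than NPY, 4 genes had a probe. Of these, 0 were called by limma in either direction at any time, and 0 had a p under 0.05 before adjustment. Over all genes 6.22%, 5.29% and 7.67% were called higher at 2, 14 and 21 dpi, so 0 of 4 is near those shares. NPY1R and NPY5R, receptors of neuropeptide Y, differed from uninjured skin by -0.10 and 0.00 at 2 dpi and by 0.10 and 0.17 at 14 dpi. NPFF, a related amidated peptide, and its receptor NPFFR1 differed by -0.03 and 0.02 at 2 dpi. The means of 2 of the 4 genes over all arrays were below the 25th percentile of all probes, so a change at a low level could have been missed. The median change was -0.02, 0.13 and -0.01 at 2, 14 and 21 dpi, against 0.02, 0.01 and -0.01 over all 8639 genes.

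No other granin was called at 2 dpi, although the mean of the granin and granule cargo list was higher than in uninjured skin. Among 10 measured genes of granins and dense-core granule cargo other than SCG2, 0 were called at 2 dpi by limma (median 0.19). Before adjustment, that is with an unadjusted p under 0.05, 4 were higher and 0 lower. Over all genes 6.22% were called higher and 4.54% lower, so 0 of 10 is near those shares. The mean of the list, centred, ran from -0.17 to -0.01 in uninjured skin and from 0.04 to 0.20 at 2 dpi. These ranges did not overlap, and the difference between them was not tested. The list mean ran from -0.07 to 0.09 at 14 dpi and from -0.04 to -0.02 at 21 dpi. CHGA, the granin chromogranin A, read 5.91, 5.66 and 5.07 in uninjured skin and 5.43, 6.35 and 5.06 at 2 dpi, which overlapped, and CHGB, chromogranin B, differed by -0.06. SCG3 and SCG5, which take part in granule formation and in folding of a prohormone convertase, differed by 0.07 and 0.12. VGF, a granin-like precursor, read 4.47, 4.26 and 4.26 in uninjured skin and 4.67, 6.00 and 5.03 at 2 dpi. Its arrays did not overlap, and its change of 0.91 did not pass the test (limma adjusted p = 0.117). NUCB2, the precursor of nesfatin, rose at 14 dpi by 0.37 (limma adjusted p = 0.0494) and at 21 dpi by 0.50 (limma adjusted p = 0.00947), and was the 1 gene of the 10 called at each of these times (medians 0.10 and 0.08).

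Most enzymes that process prohormones were not called at any one time. Of 14 measured genes, 1 was higher and 0 lower at 2 dpi (median 0.03), 1 was higher and 1 lower at 14 dpi (0.06), and 4 were higher and 0 lower at 21 dpi (0.15). Before adjustment 4 were higher and 2 lower at 2 dpi, and 4 higher and 1 lower at both 14 and 21 dpi. Over all genes 5.29% were called higher and 2.75% lower at 14 dpi, and 7.67% higher and 7.26% lower at 21 dpi. The convertases PCSK1 and PCSK2, which cut precursors inside granules, differed from uninjured skin by -0.01 and -0.62 at 2 dpi and were not called. PCSK5, a convertase found in many tissues, read 6.00, 5.40 and 5.97 in uninjured skin and 7.11, 6.68 and 6.10 at 2 dpi, and its difference of 0.84 was not called (limma adjusted p = 0.0679). CPE, the carboxypeptidase of dense-core granules, read 4.05, 4.09 and 3.94 in uninjured skin and 4.45, 4.34 and 4.36 at 21 dpi, a rise of 0.35 (limma adjusted p = 0.0218). PAM, the enzyme that amidates peptides, differed by 0.08 at 2 dpi, and its 14 dpi difference of 0.41 was not called (limma adjusted p = 0.0533).

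Other members of the list changed more, and they are not specific to granules. CPM, a carboxypeptidase of the cell surface, rose at 2 dpi by 0.61 (limma adjusted p = 0.0239) and fell by 0.61 at 14 dpi (limma adjusted p = 0.0297). CPZ, an extracellular carboxypeptidase, read 6.01, 5.48 and 4.62 in uninjured skin and 9.02, 8.38 and 8.55 at 21 dpi, a rise of 3.28 (limma adjusted p = 0.00231). CTSB, the lysosomal protease cathepsin B, rose by 0.95 at 14 dpi and 0.61 at 21 dpi (limma adjusted p = 0.000524 and 0.00400), and QPCTL, a glutaminyl cyclase of the Golgi, rose by 0.63 at 21 dpi (limma adjusted p = 0.0313).

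Peptidases that end peptide signals had no call at 2 or 14 dpi. Of 11 cell surface and related peptidases, 0 were called by limma at 2 and 14 dpi (medians -0.02 and 0.17). Before adjustment 1 was higher and 1 lower at 2 dpi, and 4 were higher and 1 lower at 14 dpi. Over all genes 6.22% were called higher and 4.54% lower at 2 dpi, 5.29% and 2.75% at 14 dpi, and 7.67% and 7.26% at 21 dpi. With 11 genes, counts this low are close to those shares. DPP4, which in mammals clips the start of neuropeptide Y, read 5.56, 6.10 and 6.33 in uninjured skin and 6.38, 6.11 and 6.28 at 2 dpi, which overlapped. At 21 dpi 1 of the 11 was higher and 0 lower (median -0.03), and this was PREP, a prolyl endopeptidase of the cytosol, with a change of 0.40 (limma adjusted p = 0.0234).

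Other precursors of neuropeptides and peptide hormones had 26 measured genes, 18 of them with a mean below the 25th percentile of all probes. Of the 26, 0 were called by limma at 2 and 14 dpi, with 2 higher and 0 lower, and 1 higher and 2 lower, before adjustment (medians 0.02 and -0.01). At 21 dpi 1 was higher and 1 lower (-0.01). With 26 genes, counts this low are close to the shares over all genes given for the peptidases. PMCH, the precursor of melanin-concentrating hormone, read 3.40, 3.34 and 3.66 in uninjured skin, 3.22, 3.51 and 3.63 at 2 dpi and 5.15, 4.94 and 4.57 at 21 dpi, and rose at 21 dpi by 1.41 (limma adjusted p = 0.00162). PTHLH, the precursor of a parathyroid hormone-related peptide made by keratinocytes in mammals, read 10.24, 8.04 and 8.74 in uninjured skin and 7.09, 7.01 and 6.88 at 21 dpi, and fell by 2.01 (limma adjusted p = 0.0400).

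**Figure D3:**
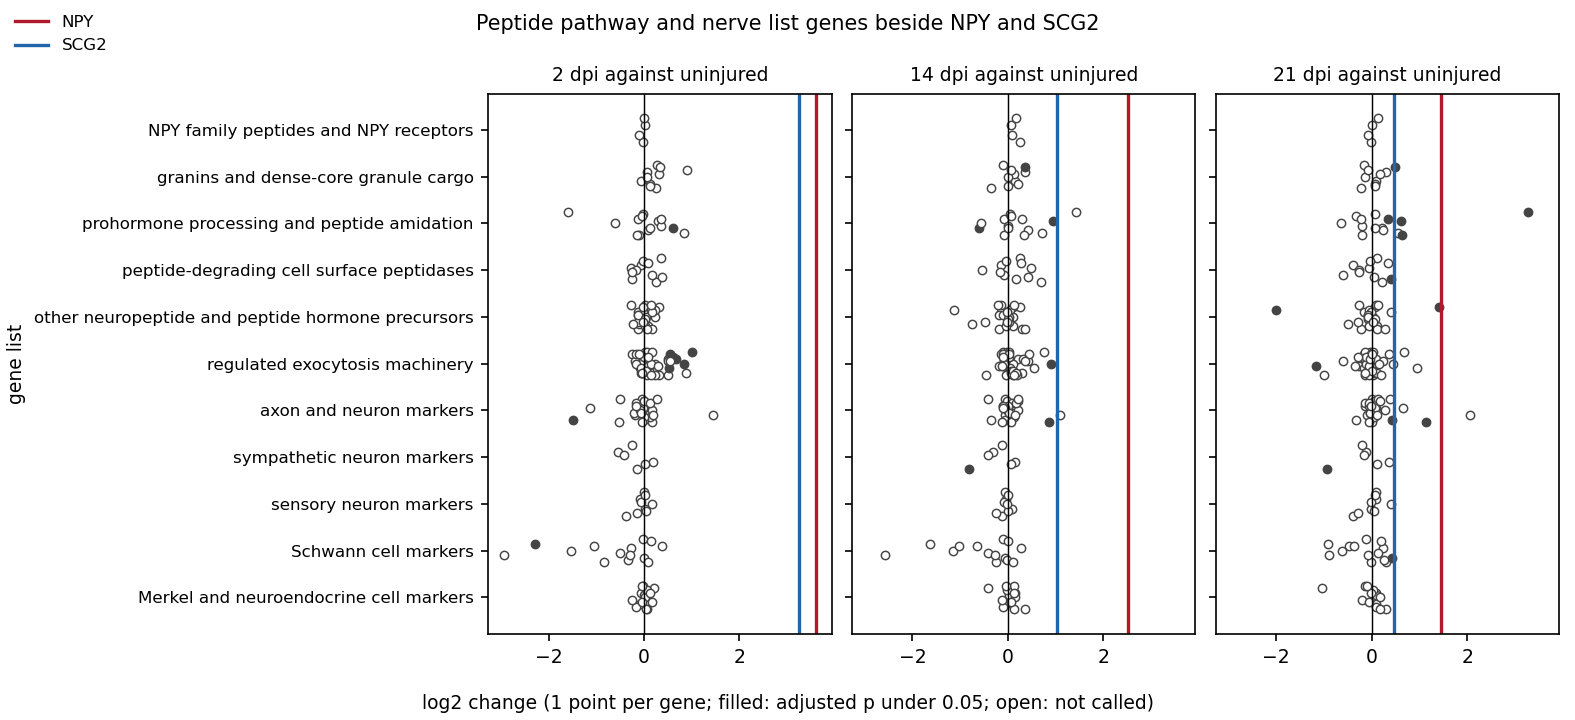
Log2 change from uninjured skin (x axis) of each measured gene in 11 peptide pathway and nerve lists (y axis) at 2, 14 and 21 dpi, with filled points for an adjusted p under 0.05 and lines for NPY axo09654-f_at and SCG2. At 2 dpi the lines lie at 3.25 and 3.61 and the highest list gene was MAPT at 1.45. NPY and SCG2 were selected on this contrast, so that gap is part of the choice.

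The machinery of regulated exocytosis, which brings granules to the cell surface, had 45 measured genes. Of these, 6 were higher and 0 lower at 2 dpi (median 0.09), where 6.22% of all genes were called higher, 1 was higher and 0 lower at 14 dpi (0.02), and 0 were higher and 1 lower at 21 dpi (-0.03, with 3 higher before adjustment). SYTL4, a granule-tethering protein that binds RAB27A, read 6.99, 7.11 and 7.93 in uninjured skin and 8.59, 8.19 and 8.26 at 2 dpi, a rise of 1.00 (limma adjusted p = 0.0215). SYTL2, of the same family, rose by 0.68 (limma adjusted p = 0.00684) and STX3, a membrane fusion protein, by 0.61 (limma adjusted p = 0.0155). STXBP3, NAPG and NSF, which act on the fusion proteins, rose by 0.53, 0.54 and 0.84 (limma adjusted p = 0.0227, 0.0227 and 0.0488), and these genes serve secretion in many cell types. RAB27A itself fell at 21 dpi by 1.18 (limma adjusted p = 0.0150).

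Put together, the peptide pathway lists held 109 measured genes without NPY and SCG2, of which 7 were higher and 0 lower at 2 dpi, with 20 higher and 3 lower before adjustment. The share called higher is close to the 6.22% of all genes called higher at 2 dpi. The counts before adjustment have no such share beside them and are a description. The 7 became 0 once the fit held the muscle marker mean, so that the exocytosis calls above were lost, and 2 with the epidermal one. They became 3 without uninjured replicate 1 or 2 dpi replicate 3, 2 without uninjured replicate 2 and 4 without 2 dpi replicate 2, and a gene was called lower without uninjured replicate 3, 14 dpi replicate 2 or 14 dpi replicate 3. Of all 20035 probes, 360 were called at 2 dpi with the muscle covariate, the fewest of any setting, so that loss was not particular to these lists. The muscle marker mean ran from -0.57 to 1.55 in uninjured skin and from -2.15 to -0.31 at 2 dpi. This covariate therefore takes up part of the difference between these groups. Of 167 genes in the peptide pathway and nerve lists together, 2 had a log2 change of at least 1 at 2 dpi, SYTL4 and MAPT. MAPT, the microtubule protein tau, read 6.30, 6.12 and 4.53 in uninjured skin and 7.05, 8.06 and 6.20 at 2 dpi, which overlapped, and its change of 1.45 was not called (limma adjusted p = 0.185).

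No marker of axons or neurons was called higher at 2 dpi. Of 27 measured axon and neuron genes, 0 were higher and 1 lower at 2 dpi (median -0.02, with 1 higher before adjustment), 1 was higher and 0 lower at 14 dpi (0.01), and 2 were higher and 0 lower at 21 dpi (0.05). Over all genes 6.22% were called higher and 4.54% lower at 2 dpi, 5.29% and 2.75% at 14 dpi, and 7.67% and 7.26% at 21 dpi. With 27 genes, counts this low are close to those shares. The same shares stand beside the counts of each cell type list below. STMN3, a tubulin-binding protein of neurons, read 6.73, 6.48 and 6.20 in uninjured skin and 5.14, 4.68 and 5.15 at 2 dpi, a fall of 1.48 on the log2 scale (limma adjusted p = 0.000729). GAP43, a protein of growing axons, rose at 21 dpi by 0.43 (limma adjusted p = 0.0240), and BASP1, a related membrane protein that other cells also make, rose by 0.86 at 14 dpi and 1.15 at 21 dpi (limma adjusted p = 0.0183 and 0.00369). Of 8 defining neuron markers 7 had a probe, and 3 of these (NEFL, NEFM and ELAVL4) had a mean below the 25th percentile of all probes, with changes at 2 dpi of 0.00, 0.00 and 0.00. Of the brighter ones, UCHL1 differed at 2 dpi by -1.13 (limma adjusted p = 0.204), TUBB3 by 0.27, STMN2 by -0.07 and GAP43 by 0.01. None of these was called at 2 dpi. The mean of the list, centred, ran from -0.09 to 0.02 in uninjured skin, -0.14 to -0.10 at 2 dpi, -0.01 to 0.07 at 14 dpi and 0.08 to 0.17 at 21 dpi. Its part in the levels of NPY and SCG2 was not tested.

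Sympathetic fibres, the best known source of neuropeptide Y in skin, had 6 measured genes. Of these, 0 were called by limma at 2 dpi, with 0 higher and 1 lower before adjustment (median -0.20), and 0 were higher and 1 lower at 14 and 21 dpi (-0.21 and -0.14). The 1 gene was CYB561, a granule membrane cytochrome, which fell, with changes of -0.81 and -0.94 (limma adjusted p = 0.00157 and 0.000651). TH, the enzyme that starts noradrenaline synthesis, was the 1 of 3 defining markers with a probe. It read 3.87, 3.96 and 3.96 in uninjured skin and 4.04, 3.90 and 3.89 at 2 dpi, below the lower quartile of all probes.

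Sensory neuron markers had 9 measured genes, of which 0 were called by limma at any time (medians 0.00, -0.05 and 0.04), with 1 higher at 21 dpi before adjustment. Merkel and neuroendocrine cell markers had 15, of which 0 were called by limma at any time (medians 0.01, 0.02 and 0.02), with 1 lower at 21 dpi before adjustment. Among the latter SYP, a vesicle membrane protein, read 4.86, 4.85 and 4.66 in uninjured skin and 4.76, 4.71 and 4.79 at 2 dpi, and INSM1, a neuroendocrine transcription factor, differed by 0.01.

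The median Schwann cell gene lay below its level in uninjured skin at each wound time. Of 14 measured genes, 0 were higher and 1 lower at 2 dpi (median -0.31), 0 were called by limma at 14 dpi (-0.26) and 1, GAP43 again, was higher at 21 dpi (-0.04), with 7 lower and 0 higher before adjustment at both 2 and 14 dpi. MBP, a myelin protein, read 7.21, 7.24 and 6.27 in uninjured skin and 5.23, 4.35 and 4.30 at 2 dpi, a fall of 2.28 (limma adjusted p = 0.0344), and PMP22, another, differed by -1.05 (limma adjusted p = 0.0528). The centred mean ran from -0.02 to 0.59 in uninjured skin and from -0.47 to -0.14 at 2 dpi, and the lowest of the uninjured arrays was replicate 3, which was also low in muscle gene signal. Without that array 8 of the 65 nerve and neuroendocrine genes together were called lower at 2 dpi, against 2 with it. Calls over all probes at 2 dpi also ranged from 921 to 2725 with single arrays left out, so the change from 2 to 8 is not read as particular to nerve genes.

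Genes that peripheral neurons turn on after axon injury in rodents had 23 measured members, of which 2 were higher and 2 lower at 2 dpi (median 0.01), 1 and 1 at 14 dpi (-0.01), and 3 and 1 at 21 dpi (-0.01). Over all genes 6.22% were called higher and 4.54% lower at 2 dpi, and 7.67% higher and 7.26% lower at 21 dpi. TUBB6, a tubulin made by many cells, rose most of the list at 2 dpi, by 2.84 (limma adjusted p = 0.00339). The lowest change of the list at 2 dpi was -4.32. CREB and AP-1 factors and immediate early genes, some of which switch on NPY and SCG2 in mammalian neurons, had 26 measured members, of which 0 were higher and 1 lower at 2 dpi (median 0.06, with 2 higher before adjustment), 0 and 2 at 14 dpi (-0.18), and 1 and 3 at 21 dpi (-0.21). MYC, a growth factor-induced transcription factor, fell at all times, with changes of -0.94, -1.05 and -0.80 at 2, 14 and 21 dpi (limma adjusted p = 0.00812, 0.00598 and 0.0133). EGR1, an early growth response factor, read 9.70, 9.09 and 9.86 in uninjured skin and 6.32, 9.14 and 8.60 at 2 dpi and fell later, with changes of -2.47 at 14 dpi and -2.71 at 21 dpi (limma adjusted p = 0.0455 and 0.0209).

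Some white blood cell genes rose at 2 dpi, and others did not pass the test. Of 9 measured neutrophil and granulocyte genes 5 were higher and 0 lower at 2 dpi (median 0.99), 3 and 0 at 14 dpi (0.82) and 2 and 0 at 21 dpi (0.36). Over all genes 6.22%, 5.29% and 7.67% were called higher at these times. NCF1, a subunit of the oxidase of phagocytes, read 4.58, 4.21 and 4.58 in uninjured skin, 7.49, 9.12 and 8.52 at 2 dpi, 6.15, 6.53 and 5.78 at 14 dpi and 5.74, 5.59 and 5.43 at 21 dpi, and rose by 3.92 at 2 dpi (limma adjusted p = 0.000183) and 1.70 at 14 dpi (limma adjusted p = 0.0162). The centred mean of the list ran from -0.79 to -0.67 in uninjured skin, 0.35 to 0.71 at 2 dpi, -0.15 to 0.49 at 14 dpi and -0.06 to 0.30 at 21 dpi.

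Of 19 measured macrophage and monocyte genes 7 were higher and 0 lower at 2 dpi (median 0.55), 10 and 0 at 14 dpi (1.10) and 12 and 0 at 21 dpi (0.92). AIF1, a macrophage calcium-binding protein, read 8.70, 8.14 and 8.10 in uninjured skin and 9.53, 10.09 and 9.96 at 2 dpi and rose by 1.55 (limma adjusted p = 0.00289). SPI1, a master factor of myeloid cells, read 4.95, 5.20 and 5.14 in uninjured skin and 6.05, 6.78 and 7.60 at 2 dpi, a rise of 1.71 (limma adjusted p = 0.00677). CSF1R, the receptor of the macrophage growth factor, differed by 0.39 at 2 dpi (limma adjusted p = 0.121) and rose by 0.59 at 21 dpi (limma adjusted p = 0.0229). The centred mean ran from -0.72 to -0.54 in uninjured skin, -0.08 to 0.27 at 2 dpi, 0.32 to 0.50 at 14 dpi and 0.11 to 0.20 at 21 dpi. The part of white blood cells in the levels of NPY and SCG2 was not tested.

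**Figure D4:**
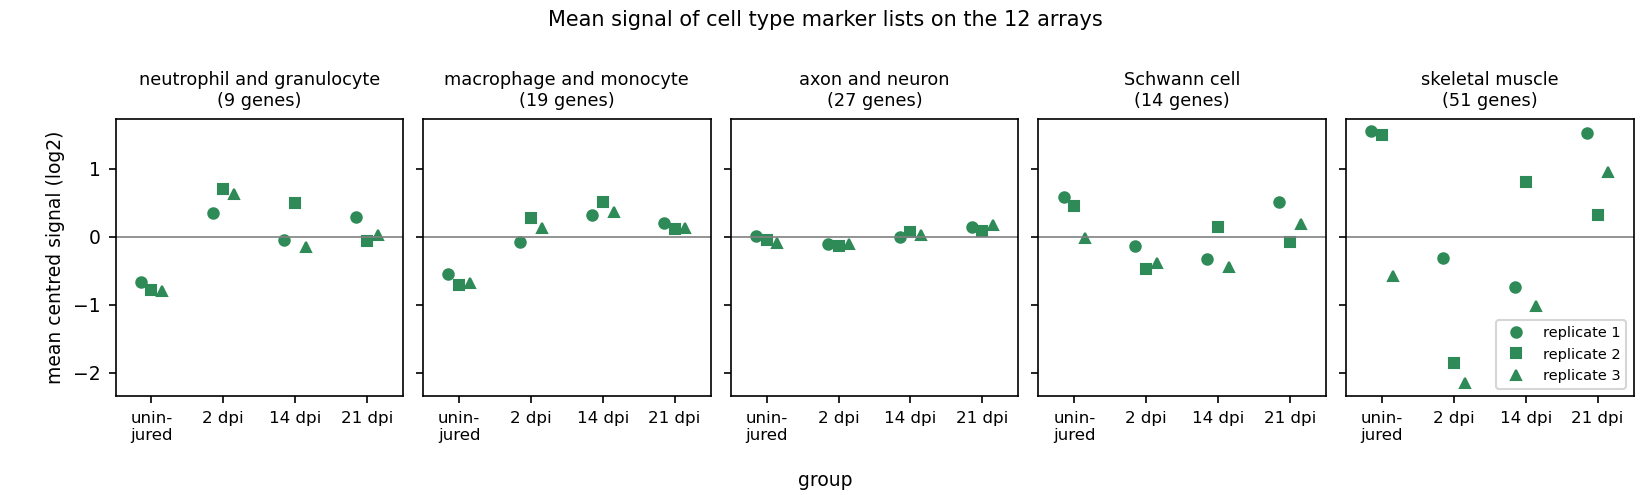
Mean log2 signal of 5 marker lists, each gene centred over the 12 arrays (y axis), in the 4 groups (x axis), with symbols for replicates. Neutrophil genes ran from -0.79 to -0.67 in uninjured skin and from 0.35 to 0.71 at 2 dpi, axon genes stayed between -0.14 and 0.17, and muscle genes spread from -2.15 to 1.55.

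Mast cells and platelets, which hold granules of their own, were thinly covered. Of 4 mast cell genes 1 was higher and 1 lower at each time (medians -0.29, -0.20 and 0.07): SRGN, the proteoglycan of granules in many blood cells, rose by 0.99, 1.32 and 1.19 (limma adjusted p = 0.0146, 0.00510 and 0.00592), and KIT, the stem cell factor receptor, which pigment cells also make, fell, with changes of -2.41, -1.83 and -1.80 (limma adjusted p = 0.00506, 0.0213 and 0.0153). Of 6 platelet and thrombocyte genes 1 was higher and 1 lower at 2 dpi, 1 and 0 at 14 dpi and 2 and 0 at 21 dpi (medians 0.64, 0.32 and 0.66), and none of the 3 defining platelet markers had a probe. PLEK, a protein of platelets and white blood cells, read 5.74, 5.59 and 5.56 in uninjured skin and 7.05, 7.80 and 7.85 at 2 dpi, a rise of 1.94 (limma adjusted p = 0.000478). Changes at 2 dpi in the platelet and thrombocyte list ran from -3.92 to 2.00.

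Markers of the structural cells of skin were counted in the same way, beside the shares over all genes given with the axon list. Of 28 epidermal genes 4 were higher and 1 lower at 2 dpi, 2 and 1 at 14 dpi and 1 and 3 at 21 dpi (medians 0.38, -0.02 and -0.19). Of 30 dermal fibroblast genes 0 were higher and 15 lower at 2 dpi (1 higher before adjustment), 7 and 1 at 14 dpi and 13 and 0 at 21 dpi (medians -1.01, 0.08 and 1.10). Of 16 endothelial genes 0 were higher and 3 lower at 2 dpi (0 higher before adjustment) and 0 were called by limma at 14 and 21 dpi, with 2 lower and 1 higher, respectively, before adjustment (medians -0.22, -0.07 and 0.08). Of 51 muscle genes 0 were higher and 15 lower at 2 dpi (0 higher before adjustment), 0 and 2 at 14 dpi and 2 and 0 at 21 dpi (medians -1.93, -1.03 and 0.00).

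The patterns most like those of the members were sought among the highest-mean probes of 8637 other genes by Pearson's r over the 12 arrays, which share the same 4 groups, so that any gene with its peak at 2 dpi scores high. For NPY axo09654-f_at they were RAI14 (r = 0.951), WDR1 (0.940), ABCC2 (0.939), AP1M2 (0.934) and PMF1 (0.932). RAI14 and WDR1 code for proteins of the actin cytoskeleton, ABCC2 for a drug and bile salt exporter and AP1M2 for an epithelial adaptor of vesicle transport. RAI14 read 4.15, 4.38 and 4.54 in uninjured skin, 5.71, 5.76 and 5.53 at 2 dpi, 5.78, 5.30 and 5.34 at 14 dpi and 5.08, 5.08 and 5.21 at 21 dpi, so its replicate 1 of 14 dpi was high, as it was for NPY. RAI14 was picked for its r over these same arrays, so this likeness is part of the choice.

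For SCG2 the genes were GAB1 (r = 0.986), LRRC31 (0.967), CBFB (0.962), NCF1 (0.962) and BATF3 (0.957). GAB1 is an adaptor of receptor tyrosine kinases, CBFB the partner of the RUNX factors and BATF3 a factor of dendritic cells in mammals. GAB1 read 8.03, 7.96 and 8.04 in uninjured skin, 8.93, 9.02 and 9.24 at 2 dpi, 8.27, 8.41 and 8.18 at 14 dpi and 8.09, 8.16 and 8.05 at 21 dpi, and its 2 dpi replicates ran in the same order as those of SCG2. That order too is part of how GAB1 was picked and is no separate evidence. No gene was in both lists of 5, and none of the 10 belonged to the peptide or nerve lists. Those lists held 167 genes against 8637 compared, so few or none among 10 genes is near that share.

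**Figure D5:**
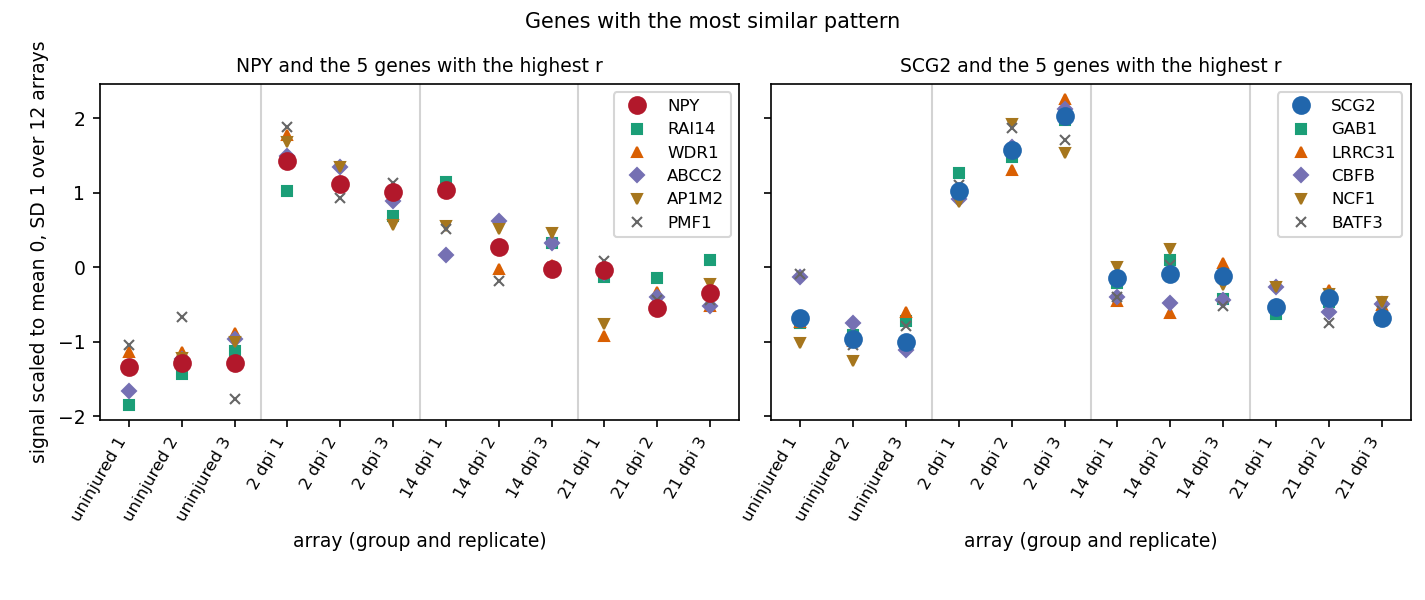
Signal scaled to a mean of 0 and an SD of 1 over the 12 arrays (y axis) by array (x axis) for NPY axo09654-f_at (left) and SCG2 (right), each with the 5 genes of the highest Pearson's r. The genes beside NPY ranged from r = 0.932 to 0.951 and those beside SCG2 from 0.957 to 0.986.

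In the RefSeq annotation of the axolotl assembly UKY_AmexF1_1, the nearest named protein-coding genes on either side are ZDHHC3 and IGF2BP3 for NPY, and ACSL3 and AP1S3 for SCG2. ZDHHC3, a palmitoyl transferase, rose by 0.73 at 2 dpi (limma adjusted p = 0.0287) and IGF2BP3, an RNA-binding protein, differed by 0.20 (limma adjusted p = 0.431). ACSL3, an enzyme that activates fatty acids, differed by -0.16 at 2 dpi (limma adjusted p = 0.517) and rose by 0.61 at 21 dpi (limma adjusted p = 0.0148), and AP1S3, an adaptor of vesicle transport, rose by 0.69, 0.65 and 0.68 at 2, 14 and 21 dpi (limma adjusted p = 0.0224, 0.0358 and 0.0200). None of the 4 had a change near that of its neighbour at 2 dpi. NPY and SCG2 were selected on that contrast, so this gap is part of the choice.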

How the data were processed

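RNA of uninjured axolotl skin and of wounds at 2, 14 and 21 dpi was measured on 12 1-colour Affymetrix arrays, 3 per group. The authors deposited log2 values, background corrected, normalised and summarised per probe set by RMA. The labels name Affymetrix Expression Console and the methods the R package affy, with versions not given in the sources used here. Unprocessed intensities were not used here.

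Of 20080 probe sets (called probes), 45 controls were left out. A linear model of the 4 group means was fitted to the other 20035 with limma 3.58.1 under R 4.3.3 (lmFit, eBayes), leaving 8 residual and 2.43 prior degrees of freedom. Two-sided p-values were corrected over all probes of a comparison by the Benjamini-Hochberg method, calls were made at 0.05, and intervals cover 95%. The annotation gave 10951 probes a symbol and 9084 none. For a gene with several probes, the brightest on average over the 12 arrays stood for it. For NPY this was axo09654-f_at, which was dimmer than axo09653-f_at in uninjured skin (3.95 against 4.33) and brighter in each wound group. That choice of probe thus rested on the wound arrays, among them those at 2 dpi that picked the gene. The fit was tested on simulated data. Precision is limited by the number of arrays, since these have no read depth.

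The members and the 21 gene lists were chosen with earlier results of these data known. Genes to be named were all of the first 3 lists (NPY family and receptors, granins and granule cargo, prohormone processing), the 4 genes with the smallest adjusted p and the defining markers in the others, and the 5 with the highest r to each member. Not all are named, and SPI1, STXBP3, NAPG, NSF, DPP4 and the neighbouring genes, outside this rule, were chosen after their values were seen. The groups were taken from titles. Alternatives were scaling, a filter on dim probes, a variance trend, the groups in the fit, a replicate block, muscle or epidermal marker means as covariates, the mean of a gene's probes and each array left out.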

Additional observations from a re-analysis of the deposited data

Results flagged for a closer look

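The effects of several genes named beside NPY and SCG2 differed between wound times by a limma test of the difference itself (adjusted p under 0.05). Many of these genes were named for a small adjusted p, for likeness to SCG2 or NPY, or after their values were seen, on these same arrays. Only genes that passed are listed and no share over all probes stands beside them, so the list is a description. Among peptide-processing genes, the later time exceeded 2 dpi on the log2 scale for CPE (0.47 at 21 dpi), CPZ (3.02 at 14 dpi and 4.87 at 21 dpi), QPCTL (0.77 at 21 dpi), CTSB (0.65 and 0.32) and PREP (0.42 and 0.65), and CPM was below 2 dpi at 14 dpi (-1.22). PMCH at 21 dpi exceeded both 2 dpi (1.43) and 14 dpi (1.16), and PTHLH at 21 dpi was below 2 dpi (-2.16).

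Exocytosis genes were below 2 dpi at 14 and 21 dpi for STX3 (-0.64 and -0.69) and STXBP3 (-0.48 and -0.70), and at 21 dpi for SYTL2 (-0.71) and RAB27A (-1.29). Of the nerve and axotomy genes, STMN3 (1.13 and 1.15) and BASP1 (0.68 and 0.97) were above 2 dpi at 14 and 21 dpi and GAP43 at 21 dpi (0.42), while CYB561 (-0.67 and -0.79) and TUBB6 (-2.02 and -1.72) were below it. The blood cell genes NCF1 (-2.22 and -2.79) and SPI1 (-1.24 and -1.58) were below 2 dpi at both times and PLEK at 21 dpi (-1.08). Of the neighbouring genes, ACSL3 was above 2 dpi at both times (0.60 and 0.78), and ZDHHC3 (-0.88) and IGF2BP3 (-0.50) were below it at 21 dpi.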

How the results depend on the processing

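The rise of NPY axo09654-f_at at 14 dpi kept its call in every alternative run, and that of SCG2 at 14 dpi and of NPY at 21 dpi did not. The call of SCG2 at 14 dpi was lost with the replicate block (1.03, adjusted p = 0.0850) and with the muscle (0.88) or epidermal (1.02) marker mean as a covariate, and that of NPY at 21 dpi with the epidermal mean (1.44). Same-numbered arrays did not deviate together as a rule (r over 0.1 in 5 of 18 pairs, -0.65 to 0.48). Differently numbered arrays reached 0.65, so this check cannot tell whether same-numbered arrays came from the same animal. The block changed no other call of a member and left 0 of 34 probes called between 14 and 21 dpi. With the mean of both probes, NPY was higher at 2 dpi by 1.81 and differed from 2 dpi by -0.56 at 14 dpi and -1.07 at 21 dpi. With single arrays left out, SCG2 ranged from 2.92 to 3.59 (2 dpi against uninjured), 0.95 to 1.16 (14 dpi), -2.56 to -1.89 (14 against 2 dpi) and -3.13 to -2.46 (21 against 2 dpi), and NPY from 1.25 to 1.62 (21 dpi) and -1.53 to -0.76 (14 against 2 dpi). The flat NPY probe changed sign around 0: at 14 dpi 0.064 with the muscle covariate, at 21 dpi -0.108 with the epidermal one, from 14 to 21 dpi -0.0388 and -0.0387 with these, and with arrays left out from -0.102 to 0.0320 at 14 dpi, -0.0682 to 0.114 at 21 dpi and -0.0512 to 0.136 from 14 to 21 dpi.

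Probes called numbered 1859, 1427, 2528 and 34 at 2, 14 and 21 dpi and from 14 to 21 dpi. They numbered 961, 324 and, from 14 to 21 dpi, 0 with only the compared groups in the fit, 360 at 2 dpi and 1 from 14 to 21 dpi with the muscle covariate, and 1175 at 21 dpi with the epidermal one. With arrays left out they ranged from 921 to 2725, 701 to 2171, 1151 to 2948 and 0 to 471. Of the peptide pathway genes, those higher numbered 7, 3 and 7 at 2, 14 and 21 dpi, with ranges of 2 to 9, 1 to 6 and 4 to 9 over arrays left out, and those lower 0, 1 and 2 (0 to 1, 0 to 2 and 0 to 5). With only the compared groups, 2 were higher at 2 dpi and 1 higher and 0 lower at 14 dpi. With the muscle covariate 0 were higher at 2 dpi, with the epidermal one 2 were higher at 2 dpi, 6 higher and 3 lower at 14 dpi and 3 higher and 0 lower at 21 dpi, with the replicate block 1 was higher at 14 dpi, and with dim probes left out 1 was lower at 2 dpi. Of the nerve genes, those higher numbered 0, 1 and 2 (0 to 0, 0 to 1 and 1 to 3) and those lower 2, 1 and 1 (1 to 8, 1 to 4 and 1 to 2). With the muscle covariate 1 was lower at 2 dpi and 3 at 21 dpi, with the epidermal one 1, 4 and 2 were lower and 1 was higher at 21 dpi, with the mean of a gene's probes 5 were lower at 2 dpi, with the block 2 were lower at 14 dpi, and with only the compared groups 0 were higher at 14 dpi and 1 at 21 dpi. The causes of these differences were not tested. Signals near background limit what can be said of uninjured NPY, its receptors and most neuropeptide precursors.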
